A study of Homo sapiens with 12 samples.

Results

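The cytosolic HSP90 genes are HSP90AA1 and HSP90AB1, the paralogs that encode the alpha and beta forms of the chaperone. All deposited peaks that overlapped the RefSeq body of either gene by at least 1 base were taken, which gave 6 of 9958 peaks, 2 in HSP90AA1 and 4 in HSP90AB1. Because peaks had been named for either knockdown or control, the 6 peaks covered only 4 distinct sites, 1 in HSP90AA1 and 3 in HSP90AB1. All 6 passed the filter on low counts, which left 5113 regions for testing.

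The 12 libraries were made from THP-1, a human monocytic leukemia line, after PMA at 100 ng/ml for 48 h, an agent that turns these cells into adherent, macrophage-like cells. NC libraries were taken as the control and KD libraries as the cells with an shRNA to METTL1 (shMETTL1), the catalytic subunit of an m7G methyltransferase. The series' design text calls the unmodified cells wildtype, and whether NC cells carried a control hairpin was not given in the sources used here. IP libraries hold RNA precipitated for 7-methylguanosine (m7G) and IN libraries were taken as their input, with 3 libraries in each of the 4 groups. All libraries came from RNA enriched on oligo(dT) beads. Nothing in the labels says whether the replicates were separate cultures, so p-values measure only the spread between these libraries.

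HSP90 is a dimeric, ATP-driven chaperone that helps kinases, steroid receptors and many other client proteins reach and hold an active fold, together with co-chaperones such as CDC37, AHSA1, PTGES3 and STIP1. HSP90AB1 is mostly expressed constitutively, while HSP90AA1 responds more strongly to heat and proteotoxic stress through HSF1, which binds arrays of short inverted nGAAn units. In macrophages, HSP90 clients include kinases of inflammatory signalling.

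The 250 bases upstream of the annotated start that lies nearest to their peaks are shown for each (RefSeq, GRCh38.p14, 5′ to 3′ on the gene's strand). They were picked after the paralogs were seen to differ between KD and NC, and any part of the promoters in that was not tested. Capitals mark the motifs TTCNNGAA and GAANNTTC, each its own reverse complement and so read alike on both strands, and TATATA, likewise. Where TTCNNGAA and GAANNTTC overlap they appear as 1 run of capitals.
HSP90AA1, chr14:102087045-102087294, minus strand: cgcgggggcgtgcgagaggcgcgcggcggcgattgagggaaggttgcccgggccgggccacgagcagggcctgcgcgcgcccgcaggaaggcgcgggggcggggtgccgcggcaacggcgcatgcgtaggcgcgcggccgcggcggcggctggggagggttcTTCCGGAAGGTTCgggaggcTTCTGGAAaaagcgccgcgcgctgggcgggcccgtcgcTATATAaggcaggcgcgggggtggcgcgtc
HSP90AB1, chr6:44247693-44247942, plus strand: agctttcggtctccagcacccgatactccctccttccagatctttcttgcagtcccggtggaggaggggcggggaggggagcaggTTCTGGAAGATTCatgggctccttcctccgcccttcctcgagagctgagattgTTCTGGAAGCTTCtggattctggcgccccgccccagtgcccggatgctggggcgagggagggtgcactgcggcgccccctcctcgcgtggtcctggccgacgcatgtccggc

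The HSP90AA1 window held TTCNNGAA at 88 and 68 bases, GAANNTTC at 83 bases and TATATA at 30 bases upstream of the start. The HSP90AB1 window held TTCNNGAA at 165 and 112 bases and GAANNTTC at 160 and 107 bases upstream, and no TATATA. Among 35116 RefSeq promoter windows of the same length, 6.62% held TTCNNGAA, 5.78% GAANNTTC, 11.6% either of them and 3.73% TATATA. HSP90AB1 has annotated starts at 44246194, whose window held none of the 3 motifs, and at 44247101, whose window held TATATA at 31 bases upstream. The HSP90AA1 window at its far upstream start, 102139749, held none. These matches describe letters in the windows and not bound sites.

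In HSP90AA1 (gene ID 3320, chr14:102080742-102139749, minus strand), the KD peak spanned chr14:102084791-102085361 (571 bases) and the NC peak chr14:102084821-102085361 (541 bases), so the NC peak lay inside the KD peak. The site lay at 92.7% of the gene body from its 5′ end, a body that is long because of the far upstream start, and 1683 bases downstream of the start at 102087044. In HSP90AB1 (gene ID 3326, chr6:44246194-44253883, plus strand), the upstream site was an NC peak at chr6:44249548-44249700 (153 bases). The main site was a KD peak at chr6:44250034-44250469 (436 bases) with an NC peak nested in it at chr6:44250034-44250439 (406 bases). The downstream site was an NC peak at chr6:44251596-44251844 (249 bases). These 3 sites lay at 44.6%, 52.8% and 71.9% of the gene body and 1605, 2091 and 3653 bases past the start at 44247943, all well inside the gene. Exons were not given in the reference used here, so coding and untranslated stretches were not told apart. For each main site the wider KD peak is used below, since its nested NC peak holds nearly the same reads.

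The nearest peak just outside was an NC peak with 70 reads in WDR20, on the other strand, 106 bases upstream of the 5′ end of the HSP90AA1 body. RefSeq lists 11 pseudogenes of the cytosolic HSP90 genes, processed copies that could share reads with them, and 0 of these held a peak. How reads with several matches were placed was not given in the sources used here. METTL1 and its partner WDR4 each had 0 peaks, so these peaks hold no reading of how far the knockdown reached.

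Some values of the whole series stand beside the results. Reads in peak regions summed to 907024 to 1105477 in the 6 IN libraries and 1476384 to 1888972 in the 6 IP libraries, where reads in overlapping KD and NC peaks are counted in both. Peaks lay in 12 of 25 monocyte and macrophage marker genes, whose summed level was 1402.4 to 1616.8 RPM (reads scaled to a fixed total of reads in peaks) in NC IN and 3090.3 to 3628.9 in KD IN. Of the 12 pan-leukocyte markers, 4 had a peak, with sums of 858.2 to 1004.1 in NC IN and 2323.0 to 2403.1 in KD IN. Of 19 epithelial, neural and kidney-derived line markers, 10 had a peak, with sums of 6274.4 to 7074.4 in NC IN against 265.3 to 311.2 in KD IN. Of these 10, 9 were higher in every NC IN library, with KRT18 and LIN28B at 0 in KD IN, and NEFH was higher in KD IN (255.84 to 303.04 RPM against 113.87 to 130.1), where it made up most of the sum. Of 8 fibroblast markers, 4 had a peak, with sums of 19.8 to 40.4 in NC IN and 18.1 to 23.3 in KD IN. The defining THP-1 and macrophage genes CD14, CSF1R and PTPRC had no peak of their own, and ITGAM and LYZ were near 0 in both conditions, at most 1.1 RPM each in NC IN and at most 1.86 and 4.66 in KD IN. The marker levels differ between KD and NC along with every KD over NC result below, and their part in those results was not tested. Whether NC and KD libraries came from otherwise like cells was not tested either, so KD over NC compares the libraries as labelled.

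The main HSP90AB1 site held more reads than any other region of the table. Its reads were 42535, 33917 and 38008 in the 3 NC IN libraries, 40981, 35177 and 37755 in NC IP, 56705, 61323 and 58046 in KD IN, and 65933, 75100 and 57874 in KD IP. In raw reads, not scaled for the larger IP libraries, every KD library was above every NC library of either kind. As a share of reads in peaks the site took 3.90% ± 0.153 (SD, n = 3) in NC IN, 2.44% ± 0.0595 in NC IP, 5.64% ± 0.411 in KD IN and 3.82% ± 0.154 in KD IP. By share, KD lay above NC within IN and within IP, while KD IP (3.67% to 3.98%) overlapped NC IN (3.74% to 4.04%). The site had rank 1 in all NC IN, KD IN and KD IP libraries and rank 3 in NC IP, behind a mitochondrial ND5/ND6 region listed as 2 peaks. With each cluster of overlapping peaks counted once, its share was 6.42% ± 0.24 in NC IN and 9.37% ± 0.68 in KD IN.

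The HSP90AA1 site held 21769, 17242 and 19822 reads in NC IN, 22329, 17131 and 19628 in NC IP, 17927, 19769 and 18335 in KD IN, and 20193, 24224 and 20941 in KD IP. As a share of reads in peaks it took 2.07%, 1.90% and 2.05% in NC IN, 1.33%, 1.16% and 1.30% in NC IP, 1.67%, 1.79% and 1.92% in KD IN, and 1.12%, 1.28% and 1.38% in KD IP. Its IN shares all lay above its IP shares, and KD and NC overlapped in both kinds of library. Its rank among all regions by reads lay between 3 and 10 in every library.

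The other HSP90AB1 sites were far lower. The upstream site held 211, 233 and 246 reads in NC IN, 287, 242 and 339 in NC IP, 354, 376 and 284 in KD IN, and 449, 449 and 277 in KD IP. The downstream site held 461, 407 and 417 reads in NC IN, 467, 418 and 580 in NC IP, 680, 784 and 552 in KD IN, and 692, 666 and 470 in KD IP. At both sites the KD IN reads lay above the NC IN reads in all libraries, while the IP groups overlapped.

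**Figure D1:**
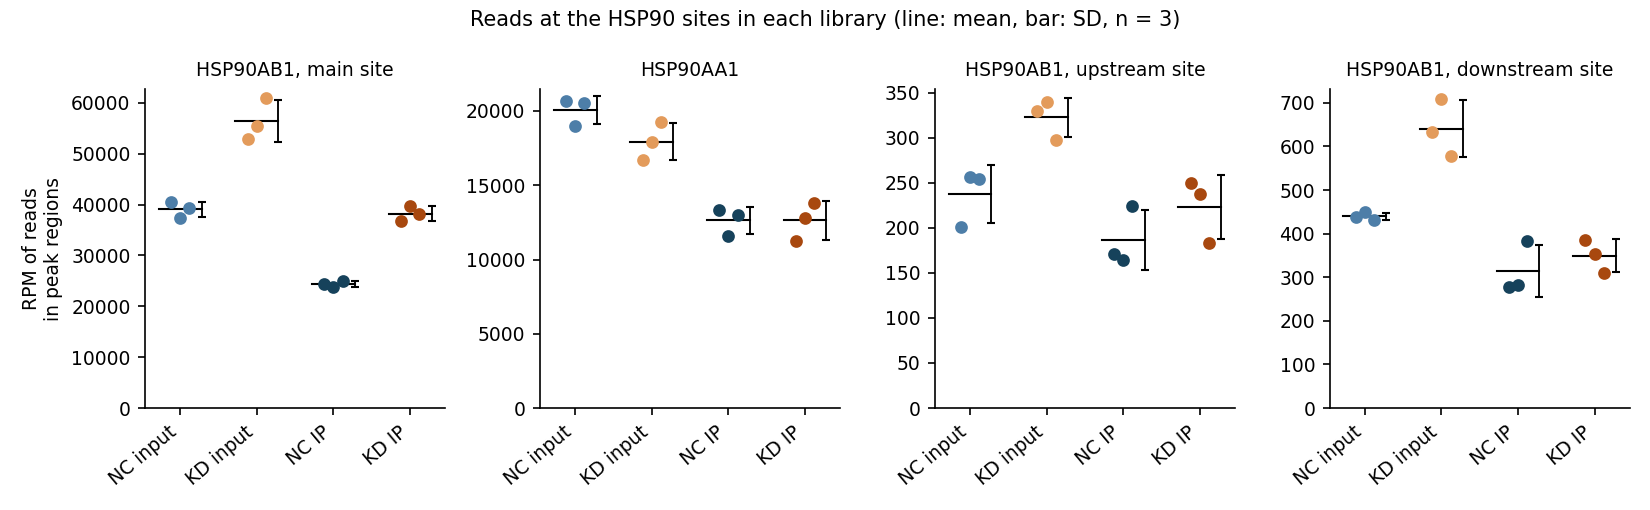
Reads at each HSP90 site in each library, in RPM of reads in peak regions, with 3 libraries per group, the mean as a line and the SD as a bar, and an axis of its own for each site. The main HSP90AB1 site was highest in KD IN and lowest in NC IP, and at HSP90AA1 the IN groups stood above the IP groups.

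Read density along HSP90AB1 rose and fell steeply. In RPKM (RPM of reads in peaks per kb of site), the upstream, main and downstream sites had means of 1551, 89560 ± 3505 (SD, n = 3) and 1765 in NC IN. The main site was 58.7 ± 10.6 times as dense as the upstream site and 50.8 ± 2.78 times as dense as the downstream site in NC IN. In KD IP these ratios were 61.2 ± 11.1 and 63.0 ± 8.04. The HSP90AA1 site had an RPKM of 35148 ± 1614 in NC IN, between the main HSP90AB1 site and the 2 lower ones. In NC IN the upstream and downstream densities differed little: the ratio of main to upstream density ranged from 51.1 to 70.7 over the libraries and that of main to downstream density from 47.6 to 52.7.

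**Figure D2:**
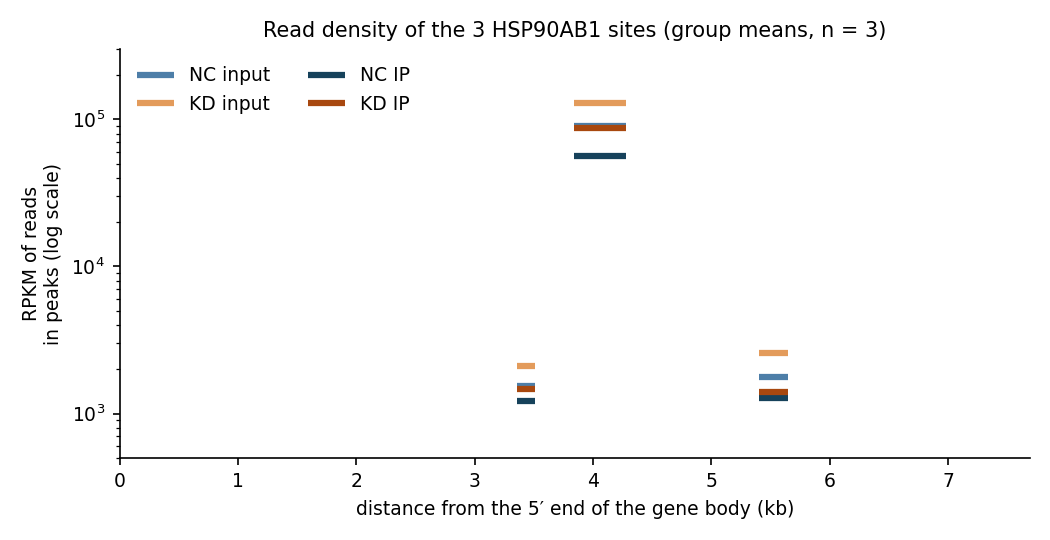
Mean read density of the 3 HSP90AB1 sites in the 4 groups (n = 3 each), in RPKM of reads in peaks on a log axis, against the distance from the 5′ end of the gene body in kb; each bar spans its peak. The main site stood about 45.1 to 63.0 times above the downstream site in the group means.

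IP over IN asked whether m7G precipitation enriched each site against the average peak region, in control and in knockdown cells separately. All 4 sites were lower in IP than in IN, in NC and in KD. In NC, the main HSP90AB1 site fell by 0.96 on the log2 scale (SE 0.085, 95% interval -1.14 to -0.79, adjusted p = 2.434e-09, edgeR with Benjamini-Hochberg adjustment), which is 1.95-fold lower. HSP90AA1 fell by 0.95 (SE 0.093, 95% interval -1.15 to -0.76, adjusted p = 1.057e-08 by edgeR), which is 1.94-fold lower. The upstream site fell by 0.63 (SE 0.16, adjusted p = 0.0022 by edgeR) and the downstream site by 0.76 (SE 0.14, adjusted p = 5.933e-05 by edgeR). Across all 5113 regions 46.7% were called in NC, 24% lower and 22.7% higher in IP, and all 4 sites were among those called lower. About 1 in 10 tested regions lay as low as the main sites (10.1% for HSP90AB1 and 10.3% for HSP90AA1).

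In KD, the main HSP90AB1 site fell by 0.72 on the log2 scale in IP (SE 0.085, adjusted p = 1.945e-07 by edgeR) and HSP90AA1 fell by 0.67 (SE 0.093, adjusted p = 2.19e-06 by edgeR). The upstream site fell by 0.69 (SE 0.15, adjusted p = 0.000718) and the downstream site by 1.04 (SE 0.13, adjusted p = 8.286e-07), both by edgeR. All 4 sites were again called lower, where 44.9% of all regions were called, 21.4% lower and 23.5% higher, and 14.9% and 17.1% of regions lay at or below the main HSP90AB1 and HSP90AA1 sites. The median of all regions was 0.13 in NC and 0.23 in KD. Scaling by library size alone moved these medians to 0.42 and 0.40. Of the called regions, 48.6% were higher in NC IP with TMM and 67.2% by library size alone, and for KD IP the shares were 52.3% and 63.6%. Under that scaling the upstream site in NC lost its call (log2 -0.34, adjusted p = 0.0715 by edgeR), and the other sites and conditions kept theirs.

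**Figure D3:**
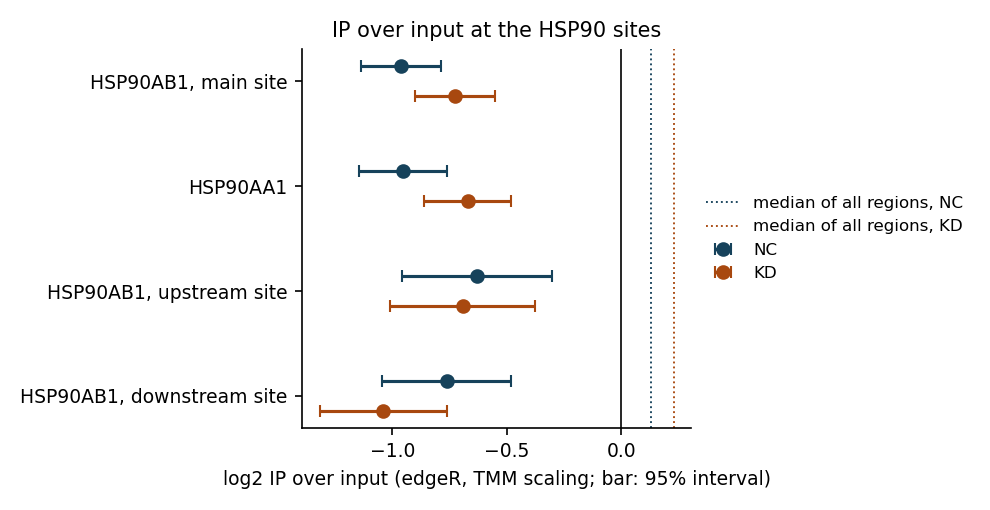
Log2 IP over input at the 4 HSP90 sites in NC and KD from edgeR with TMM scaling, with 95% intervals as bars, a solid line at 0 and dotted lines at the medians of all tested regions (0.13 in NC, 0.23 in KD). All 8 intervals lie below 0.

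Raw reads at the main sites were near equal in IP and IN in NC and higher in IP in KD, so the decrease is relative to the other peaks. Sequencing depth was not given, so raw reads alone do not show whether RNA fell. Summed over 3 libraries, the main HSP90AB1 site had 0.995 times as many IP as IN reads in NC and 1.13 times in KD. For HSP90AA1 these ratios were 1.004 and 1.166, while reads of all peaks rose 1.593 times in NC and 1.659 times in KD. The upstream site had ratios of 1.258 and 1.159 and the downstream site 1.14 and 0.907, the one value here clearly under 1.

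In the authors' deposited table all 6 peaks carried a fold enrichment above 1, as did every peak listed. The values in the authors' deposited table were 1.61 (KD peak) and 1.41 (NC peak) at the main HSP90AB1 site, 1.71 and 1.39 at HSP90AA1, 1.45 at the upstream site and 1.48 at the downstream site. Between 2.24% and 6.28% of all peaks had a fold as low or lower in the authors' deposited table, whose median was 9.06 with a range of 1.09 to 637. The 100 peaks with most reads had a median fold of 2.42 in the authors' deposited table, and their median length was 501 bases against 182 for all peaks. How the authors computed the fold was not given in the sources used here, so the edgeR ratio and the deposited fold cannot be put on 1 scale.

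**Figure D4:**
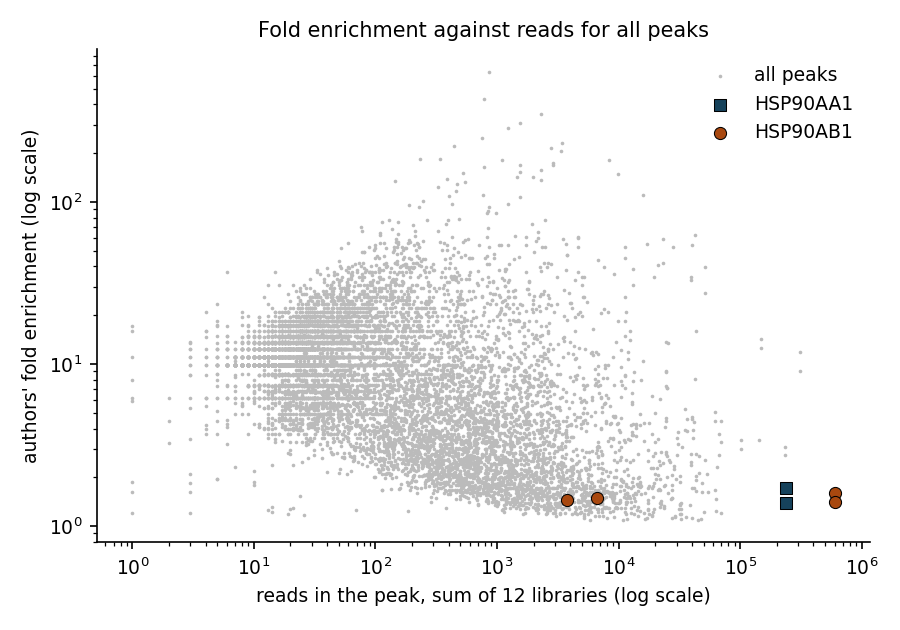
The authors' fold enrichment of each of the 9958 peaks against its reads summed over 12 libraries, both on log axes, with the peaks of HSP90AA1 and HSP90AB1 marked. The 6 HSP90 peaks lie between 1.39 and 1.71, near the bottom of the range, and 4 of them among the peaks with most reads.

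KD over NC in IN asked whether RNA from these genes differed in abundance in the input, and here the paralogs went apart. The main HSP90AB1 site rose by 0.45 on the log2 scale in KD IN (SE 0.085, 95% interval 0.27 to 0.62, adjusted p = 0.000142 by edgeR), a 1.36-fold rise. The downstream site rose by 0.47 (SE 0.14, adjusted p = 0.00778 by edgeR), and the upstream site had a log2 value of 0.37 that missed the threshold (SE 0.16, adjusted p = 0.0679 by edgeR). The upstream value passed without NC IN replicate 2 or 3, NC IP replicate 3, KD IN replicate 3 or KD IP replicate 3 (log2 0.37 to 0.51, edgeR adjusted p 0.0236 to 0.0499), and under library size alone, no filter or a minimum of 50 reads. HSP90AA1 fell by 0.24 (SE 0.093, 95% interval -0.43 to -0.05, adjusted p = 0.0392 by edgeR). Among all regions 39.8% were called in IN, 17.9% higher and 21.9% lower in KD. The HSP90AA1 call was not kept by leaving out any 1 of the 6 IN libraries or KD IP replicate 2 (log2 -0.24 to -0.15, adjusted p up to 0.295), nor by library size alone, by no filter or by a minimum of 50 reads. In bulk RNA, a change in the share of cells and a change in RNA per cell cannot be told apart.

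In IP the main HSP90AB1 site rose by 0.69 on the log2 scale in KD (SE 0.085, 95% interval 0.51 to 0.86, adjusted p = 3.78e-07 by edgeR), a 1.61-fold rise. HSP90AA1 had a log2 value of 0.04 (SE 0.093, 95% interval -0.15 to 0.23, adjusted p = 0.77 by edgeR), whose sign turned under library size alone, a minimum of 50 reads, upper quartile scaling and DESeq2, and without NC IN replicate 2 or 3, NC IP replicate 2 or KD IP replicate 3. The upstream site had 0.30 (SE 0.15, adjusted p = 0.125) and the downstream site 0.19 (SE 0.13, adjusted p = 0.285), both by edgeR, and neither passed. Without NC IP replicate 3, the upstream value was 0.48 and the downstream value 0.38, and both passed. The upstream value also passed without KD IP replicate 3. So 1 of the 4 sites was called, where 41% of all regions were, 20.9% higher and 20.1% lower in KD.

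The change in enrichment, KD IP over IN against NC IP over IN, asked whether the knockdown altered m7G signal beyond abundance. No HSP90 site passed. The log2 change was 0.24 at the main HSP90AB1 site (SE 0.12, 95% interval -0.01 to 0.48, adjusted p = 0.439 by edgeR) and 0.28 at HSP90AA1 (SE 0.13, 95% interval 0.01 to 0.55, adjusted p = 0.388 by edgeR). It was -0.06 at the upstream site (95% interval -0.52 to 0.39) and -0.28 at the downstream site (95% interval -0.67 to 0.12), where edgeR's adjusted p was 0.947 and 0.574. The estimates at both main sites were above 0, and neither passed. Before adjustment edgeR's p was 0.0579 at the main HSP90AB1 site and 0.0409 at HSP90AA1. Of all regions 0% were called by edgeR, 610 had an unadjusted p under 0.05 and DESeq2 called 21. In the authors' deposited table the log2 change was 0.117 and 0.119 for the KD and NC peak of the main HSP90AB1 site, 0.162 and 0.164 for those of HSP90AA1, -0.181 upstream and -0.395 downstream, with adjusted p from 0.378 to 0.886 in the authors' deposited table.

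A ratio within a library does not depend on scaling between libraries, so the paralogs were set against each other per kb of their main sites. HSP90AB1 over HSP90AA1 was 2.56, 2.58 and 2.51 in NC IN, 2.40, 2.69 and 2.52 in NC IP, 4.14, 4.06 and 4.15 in KD IN, and 4.28, 4.06 and 3.62 in KD IP. All 6 KD libraries were above all 6 NC libraries. The mean ratio was 2.55 ± 0.0337 (SD, n = 3) in NC IN and 4.12 ± 0.0473 in KD IN, and 2.54 ± 0.144 in NC IP and 3.98 ± 0.335 in KD IP.

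The KD over NC difference in this ratio was 1.59-fold in favour of HSP90AB1 (exact permutation test within IN and within IP, two-sided, p = 0.005, the smallest that 400 arrangements can give, Benjamini-Hochberg adjusted p = 0.045 over 9 ratio tests). IN and IP labels were permuted separately, which counts IN and IP libraries as independent. Whether same-numbered IN and IP libraries came from 1 preparation was not given. If they did, this p is too small. A block test paired same-numbered KD and NC libraries, within IN and within IP, and flipped the signs of the paired differences. This exact permutation test gave adjusted p = 0.188 over 6 tests. It also counts IN and IP libraries as independent, so it does not address a shared preparation, which was not tested. The paralog ratio, the only one at the floor of that test, could not pass. On the log2 scale the ratio of HSP90AA1 to HSP90AB1 fell by 0.69 in IN and by 0.65 in IP. Precipitation left the ratio close to that of the input, with a log2 difference of 0.03 between IP and IN (exact permutation p = 0.55, adjusted p = 0.686). The difference between KD and NC in that step, a test chosen after values were seen, was 0.04 (exact permutation p = 0.87). Leaving out any 1 library gave log2 values of -0.70 to -0.64 for KD over NC, each with an adjusted p of 0.045 by the exact permutation test. With all KD ratios above all NC ratios the permutation p had to stay at its floor, so its staying is no added support.

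**Figure D5:**
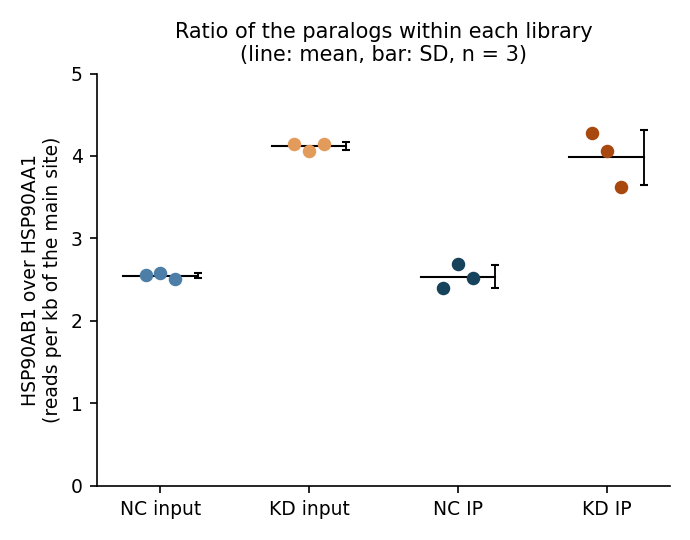
HSP90AB1 over HSP90AA1 in reads per kb of the main site within each library, with 3 libraries per group, the mean as a line and the SD as a bar. The NC libraries lie between 2.40 and 2.69 and the KD libraries between 3.62 and 4.28, in IN and in IP.

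Along HSP90AB1, the lower sites were compared with the main site in the same way, and no position ratio passed. The upstream over main ratio had a log2 difference of 0.17 between IP and IN (exact permutation p = 0.21, adjusted p = 0.378) and of -0.23 between KD and NC (exact permutation p = 0.11, adjusted p = 0.27). For the downstream over main ratio these were -0.07 (exact permutation p = 0.61, adjusted p = 0.686) and -0.24 (exact permutation p = 0.12, adjusted p = 0.27). The IP over IN difference of the downstream ratio was 0.18 in NC and -0.32 in KD, and the difference between them, -0.50, had an exact permutation p of 0.1 (adjusted p = 0.27). That last test was also chosen after values were seen. HSP90AA1 has 1 site and gave no position ratio.

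The nested peaks allow a look at the edge of a site, as a description made after values were seen. The 30 bases at chr6:44250440-44250469, inside the KD peak of HSP90AB1 but outside its NC peak, held 349, 295 and 287 more reads in NC IN and 71, 46 and 96 in NC IP. In KD they held 616, 677 and 494 reads in IN and 160, 154 and 114 in IP. These counts are the difference between the nested peaks, and which reads they cover depends on the counter, which was not given. Raw IP over IN in the strip was 0.229 for NC libraries and 0.24 for KD libraries, while the rest of the site had 1.002 and 1.139.

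At HSP90AA1 the strip was chr14:102084791-102084820, at the 3′ side of the site, where raw IP over IN was 0.663 for NC libraries and 0.517 for KD libraries, while the rest of the site had 1.007 and 1.172. Both strips were thus lower in IP over IN than the rest of their site. The strips are edges of called peaks, where a lower ratio can be built in by the call, so this is no result about the HSP90 genes. Among 219 such nested pairs with at least 50 strip reads, 85.4% had a lower ratio in the strip, with a median strip over rest of 0.543 (quartiles 0.325 and 0.836). The value was 0.217 for HSP90AB1, with 14.2% of pairs as low or lower, and 0.542 for HSP90AA1, at the middle of the pairs.

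Of 91 genes of the wider HSP90 machinery (other HSP90 and HSP70 family chaperones, J-domain proteins, co-chaperones, chaperonin subunits and heat shock factors), 37 had a peak of their own and 21 had a tested region. In IP over IN, 13 of the 21 were lower and 2 higher in NC, and 13 lower and 0 higher in KD, with a median log2 of -0.75 in both. Over all 2574 genes tested, 26.9% were lower and 18.6% higher in NC with a median of -0.04, and 23.4% were lower and 18.4% higher in KD with a median of 0.08. The 21 genes were not matched to all genes by read level, whose part in this difference was not tested. CDC37, which brings kinases to HSP90, fell by 0.80 in NC and by 0.82 in KD on the log2 scale, and HSP90B1, the endoplasmic reticulum paralog, fell by 0.64 in NC and by 0.54 in KD.

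The smallest p-values in IP over IN belonged to DNAJC7 (log2 -1.48 in NC and -1.53 in KD) and DNAJB6 (-1.16 and -0.96), both J-domain partners of HSP70, to HYOU1 (-0.97 and -0.81), an endoplasmic reticulum relative of HSP70, and to BAG1 (-1.25 and -1.09), an HSP70 nucleotide exchange factor. The 2 that rose in NC were DNAJB11 (0.83) and DNAJC10 (1.95), J-domain proteins of the endoplasmic reticulum. Both had few reads, and each lost its call without any 1 of 3 libraries, which were NC IN replicate 3 and NC IP replicate 2 for both, NC IN replicate 2 for DNAJB11 and NC IP replicate 1 for DNAJC10.

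In KD over NC in IN, 4 of the 21 machinery genes rose and 3 fell, with a median of 0.08, against 17.3% and 23.7% of all genes and a median of -0.04. HSPH1, an HSP110 exchange factor of HSP70, rose by 0.69 (adjusted p = 0.000267 by edgeR) and BAG1 by 0.68 (adjusted p = 0.000633 by edgeR). DNAJA4, a cytosolic J-domain protein, rose by 0.86 and DNAJB11 by 1.26. PPID, an HSP90-binding cyclophilin, fell by 0.77 (adjusted p = 6.11e-05 by edgeR) and AHSA1, the activator of the HSP90 ATPase, fell by 0.62 (adjusted p = 0.000204 by edgeR). HSP90B1 fell by 0.26 (adjusted p = 0.0304 by edgeR), a call lost without any 1 of the 6 IN libraries, with values of -0.25 to -0.17, and under library size alone, no filter or a minimum of 50 reads.

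In KD over NC in IP, 5 machinery genes rose and 2 fell, with a median of 0.01, against 20.9% and 21.4% of all genes and a median of 0.02. DNAJA4 rose by 1.20, HSPH1 by 0.78 and BAG1 by 0.84, and AHSA1 fell by 0.59 and PPID by 0.61 on the log2 scale, each in the direction of the input. STUB1, a ubiquitin ligase that binds HSP70 and HSP90, rose by 0.90, a call lost without KD IP replicate 2 (0.36) and with DESeq2. DNAJB6 rose by 0.30, a call lost without any 1 of 11 libraries and under every other scaling, filter or tool tried. No machinery gene passed for the change in enrichment, where the smallest p-values belonged to DNAJB11 (log2 -1.33, adjusted p = 0.221), DNAJC10 (-2.44, adjusted p = 0.349), RUVBL2 (1.50, adjusted p = 0.615) and STUB1 (0.45, adjusted p = 0.645), all by edgeR. With 1 library left out, the log2 change ran from 0.85 to 6.82 for RUVBL2, highest without KD IN replicate 1, and from -3.29 to -1.96 for DNAJC10, and neither passed. HSP90B1, DNAJA4, DNAJB11, DNAJC10, DNAJB6 and STUB1 in KD over NC or among the genes that rose in NC, CDC37, and PPID in IP are named after their values were seen.

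Over the 12 libraries the genes whose log2 level followed HSP90AA1 most closely, among 1371 genes, were G3BP2 (Pearson r = 0.986), HMGN3 (0.981), MIER1 (0.981), SMARCA4 (0.98) and BAZ1B (0.973). For HSP90AB1 they were CCPG1 (0.995), ACTB (0.993), G0S2 (0.988), AP3B1 (0.988) and NRDC (0.986). For scale, 95% of genes had r below 0.91 with HSP90AA1 and below 0.94 with HSP90AB1, and the paralogs had r = 0.751 with each other. These correlations share the IP and IN and the KD and NC steps of the design, and are given as descriptions.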

How the data were processed

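Per the submitters' processing notes, the authors used fastp 0.23.4 and GRCh38; the aligner, peak caller and counter are not given in the sources used here. The authors deposited raw read counts per peak and library, with no normalization. They also deposited, per the file headers, a fold enrichment ratio, an equal score, p-values of the peak call, and a log2 change with its p-values. Peaks were matched to RefSeq gene bodies by at least 1 base of overlap. The count model was edgeR 4.0.16's quasi-likelihood F test (R 4.3.3, two-sided) with a mean for each of 4 groups, leaving 8 residual df, after filterByExpr (minimum count 10, minimum total 15) and TMM scaling, with Benjamini-Hochberg adjustment over 5113 regions and a threshold of 0.05. The methods were tested on simulated data. Ratios within a library added 0.5 reads and used exact permutation within strata, which takes all libraries as independent. RPM and RPKM computed here use reads in peaks, which are not the sequencing depth.

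Members, lists and tests were chosen with earlier results of these data known. Machinery genes were counted by their region with most reads, and the 4 smallest p-values per comparison were named; the 5 genes most like each member were named by Pearson r, among genes with at least 50 reads in each group. Alternatives were DESeq2 1.42.0, library size alone, upper quartile scaling (added after the data were seen), other filters, a 5 read pseudocount, 1 region per cluster of overlapping peaks, a replicate block, a 50% overlap, an adjusted p of the peak call under 0.05 and leaving out each library. Deviations from the group means over all tested regions were nearly uncorrelated between same-numbered libraries (-0.088 to 0.068), and numbers were not used as pairs in the main tests. Differently numbered libraries were not compared, so this does not show that same-numbered libraries came from separate preparations. Reads in peaks ranked the numbers alike in IN and in IP, within NC and within KD.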

Additional observations from a re-analysis of the deposited data

How the results depend on the processing

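Of the 560 alternative values of the 6 peaks, 511 kept direction and call. HSP90AA1 in KD over NC in IN lost its call under library size alone (log2 -0.16), no filter (-0.19) and at least 50 reads (-0.19), and was -0.24 to -0.15 with a library left out. HSP90AA1 in KD over NC in IP, not called at 0.04, was -0.004 under library size alone, -0.007 with at least 50 reads, -0.013 under upper quartile scaling and -0.04 with DESeq2, and -0.021 to 0.105 with a library left out; its nested NC peak gave -0.002, -0.005, -0.01 and -0.038, and -0.019 to 0.108. The upstream HSP90AB1 site in NC IP over IN was -0.34 under library size alone. In KD over NC in IN it passed under library size alone (0.45), no filter (0.42) and at least 50 reads (0.42), with 0.29 to 0.51 over libraries left out. In KD over NC in IP it gave 0.20 to 0.48, and its change in enrichment -0.24 to 0.115. The downstream site in KD over NC in IP gave 0.082 to 0.38. STUB1's change in enrichment ran from -0.10 to 0.69.

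For the change in enrichment over all regions, 45 were called with no filter, 16 with the replicate block, 21 by DESeq2 and 0 to 1 with a library left out. With 1 region per cluster, 1504 regions were called in NC IP over IN and 1401 in KD IP over IN, where fewer regions were tested. For the paralog ratio, the replicate block paired same-numbered KD and NC libraries and flipped the signs of their differences, with IN and IP counted as independent. The ratio kept its log2 difference of -0.671 with an exact permutation p of 0.031, the smallest that 64 sign patterns can give. Its adjusted p was 0.188 over 6 tests, and as the only ratio that low it could not pass. The block changed no other HSP90 call. Over libraries left out, IP over IN of the paralog ratio was -0.005 to 0.055 and its change between KD and NC was -0.025 to 0.095. All 6 peaks had the authors' adjusted p of the peak call under 0.05, and 4 of 6 were shared between the sets at either overlap. The upstream and downstream sites, with 211 to 784 reads per library, had the widest intervals. The 3 libraries per group limit all of these comparisons.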
